A study of Homo sapiens with 6 samples.

Results

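H3K27ac was compared between SLFN11-knockout CCRF-CEM cells given camptothecin for 4 h and SLFN11-knockout cells given the vehicle DMSO. The comparison holds 2 of the 6 libraries of the series, 1 in each group, chosen by their labels. All 6 come from CCRF-CEM, a human cell line grown from a T-cell leukemia and long established in culture, and were immunoprecipitated with 1 antibody against H3K27ac. Knockout cells at 2 h, and parental (wild-type) cells with DMSO, 2 h and 4 h of the drug, complete the series. Camptothecin was used at 100 nM in each treated group. The labels do not give the time spent in DMSO, and say nothing of whether the knockout line is 1 clone. With 1 library per group there is no spread between replicates, so no p-value between groups or standard error is given.

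Acetylation of lysine 27 on histone H3 marks promoters and enhancers that are in use, and it is written and removed within minutes to hours. Camptothecin traps topoisomerase 1 on DNA, and replication forks that run into the trapped enzyme stall or break. SLFN11 binds to stalled forks, opens chromatin there and blocks further replication, and cells that lack it survive such drugs better. The question set by the design is whether the marked chromatin changes under the drug when SLFN11 is missing. Peaks are placed on hg19. No annotation or genome sequence of that build was used here, so sites are given by position, without genes or sequence. For the same reason the SLFN11 locus and the markers of T cells were not checked.

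The 4 h library is shallow. Its background pileup, which was solved from the deposited fold and p of its most frequent kind of peak, was 0.168 fragments per base, against 0.699 in knockout DMSO, a ratio of 0.241. It was 0.715 in knockout 2 h and between 0.506 and 0.603 in the parental libraries. Treatment for 4 h and this low depth come in the same library and cannot be told apart in any result below. The comparison was therefore limited to the 5000 and the 10000 strongest peaks per library, taken from chromosomes 1 to 22 and from X and ordered by the authors' −log10 p. Positions in that order, not the presence or the width of a peak, were compared. The 5000 strongest make up 1.24% of the 402427 peaks of knockout 4 h on these chromosomes and 1.87% of the 267480 of knockout DMSO.

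The order was taken from values on different scales. The strongest peak had a −log10 p of 117.3 in knockout 4 h and 118.9 in knockout DMSO, nearly the same. From the next peaks on the 4 h values were lower. At rank 100 the −log10 p was 22.5 in knockout 4 h and 53.8 in knockout DMSO. At rank 1000 it was 13.9 in knockout 4 h and 36.5 in knockout DMSO, and at rank 5000 it was 7.88 and 20.6 in the same order. At rank 10000 the values were 5.65 at 4 h and 11.4 with DMSO. The 4 h value was thus 0.419, 0.380, 0.383 and 0.494 times the DMSO value at these 4 ranks. The other treated libraries lay between 0.860 and 1.10 times knockout DMSO at the same ranks. The median fold of the 5000 strongest peaks differed less, with 5.45 in knockout 4 h and 5.94 in knockout DMSO. Fold is not free of depth either, by the way it is formed, which is given under processing.

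**Figure D1:**
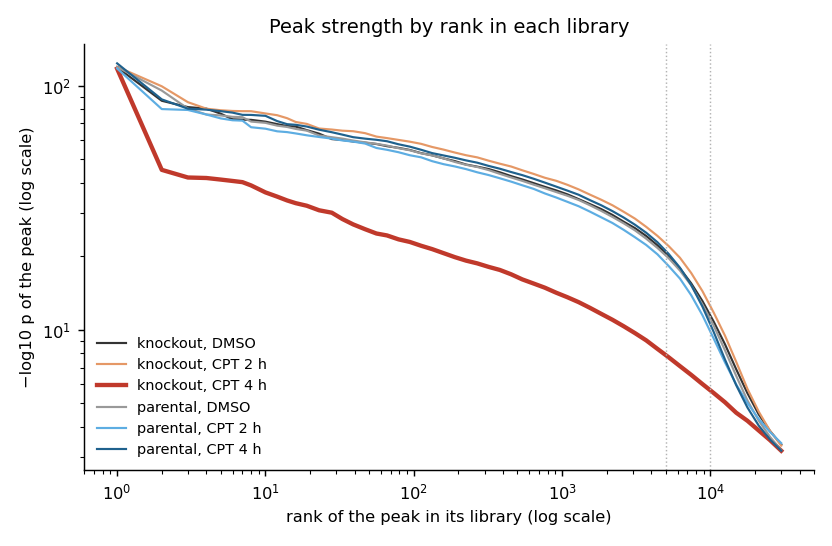
The −log10 p of peaks (vertical axis, log scale) is plotted against their rank in each library (horizontal axis, log scale), with dotted lines at ranks 5000 and 10000. The curve of knockout 4 h starts with the others at 117.3 and runs below them from the next peak on, at 13.9 against 36.5 in knockout DMSO at rank 1000.

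The strongest H3K27ac sites of the knockout were nearly all shared with and without 4 h of camptothecin. Of the 1000 strongest peaks at 4 h, 98.6% (Wilson 95% interval 97.7 to 99.2) overlapped one of the 5000 strongest with DMSO. In the other direction, 99.1% (98.3 to 99.5) of the 1000 strongest DMSO peaks were among the 5000 strongest at 4 h. The median partner of the 1000 strongest 4 h peaks ranked 639 in knockout DMSO, and 90% of the partners ranked 2272 or better. For the 1000 strongest DMSO peaks, the partners at 4 h had a median rank of 635, and 90% ranked 2049 or better. These intervals cover counting error over peaks only, and peaks are not replicates.

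Agreement fell steeply with rank. Of the 4 h peaks ranked 2001 to 3000, 82.3% (79.8 to 84.5) were among the 5000 strongest with DMSO. Of those ranked 4001 to 5000, 50.6% (47.5 to 53.7) were. For DMSO peaks of these same ranks, 83.4% and 47.3% were found among the 5000 strongest at 4 h. Over all 5000, 78.4% of the 4 h peaks were found with DMSO and 78.4% of the DMSO peaks at 4 h. Lists of equal length must give nearly equal shares in both directions, so these shares carry no direction of change.

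The other 2 comparisons with DMSO kept higher shares at every class of rank. Among peaks ranked 4001 to 5000, 64.3% of those at 2 h in the knockout and 60.6% of those at 4 h in parental cells were in the matching DMSO list. Over all 5000 peaks these shares were 90.4% and 87.8%. The knockout comparisons at 4 h and 2 h share the DMSO library. With 10000 peaks per library, 73.8% of the knockout 4 h peaks were found with DMSO, against 93.0% for knockout 2 h and 91.7% for parental 4 h. The gap was widest among peaks ranked 6001 to 8000, where 59.5% of the 4 h peaks were found with DMSO, against 95.2% for knockout 2 h and 93.5% for parental 4 h. The depth of the 4 h library moves with these differences, and its part in them cannot be told apart from that of the treatment.

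**Figure D2:**
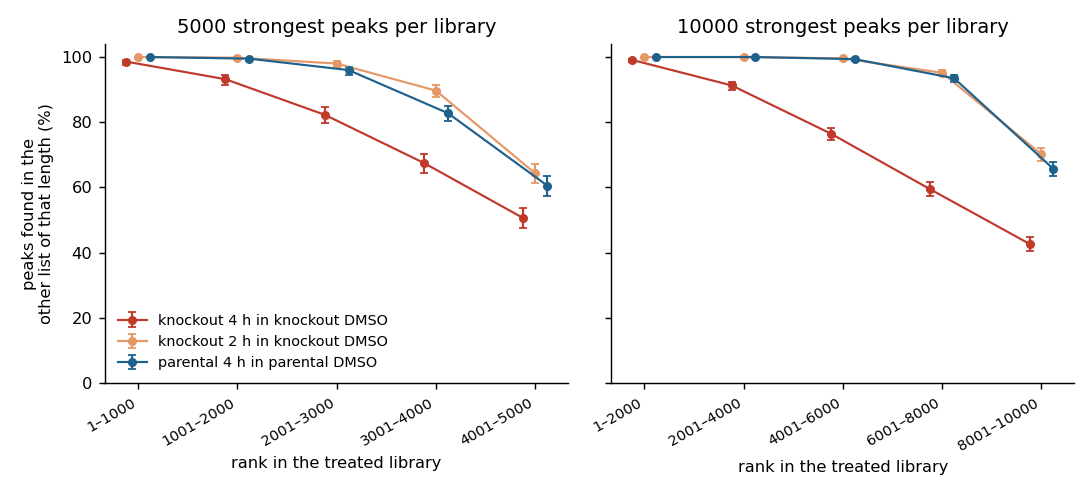
Percent of the treated library's peaks that overlap one of the equally many strongest peaks of the matching DMSO library (vertical axis), by rank class (horizontal axis), for 5000 peaks (left) and 10000 peaks (right). Bars are Wilson 95% intervals over peaks, and knockout 4 h runs below the other comparisons, at 50.6% against 64.3% and 60.6% in the last class on the left.

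To follow single sites, the 5000 strongest peaks of both libraries were merged where they overlapped, which gave 6078 regions, typically 1344 bp wide (median). A region's rank in a library followed from the largest −log10 p among that library's peaks in it. Over these regions the ranks of knockout 4 h and knockout DMSO had a Spearman correlation of 0.61, a description across sites of 2 libraries that differ in depth. The median absolute shift between them was 1010 places, and 10% of regions moved by more than 2608. The regions of knockout 2 h against DMSO, made in the same way, gave 0.86 and a median shift of 453 places. Those of parental 4 h against DMSO gave 0.80 and 581 places.

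A shift of at least 2500 places was counted. At 4 h in the knockout, 371 of 6078 regions (6.10%) were stronger by that much than with DMSO and 334 (5.50%) were weaker, 11.6% in either direction. Knockout 2 h had 27 stronger regions (0.493%) and 44 weaker ones (0.803%) of 5482, 1.30% in either direction. Parental 4 h had 52 stronger (0.927%) and 85 weaker (1.52%) of 5610, 2.44% in either direction. With 10000 peaks per library and a shift of 5000 places, knockout 4 h had 876 stronger (6.94%) and 574 weaker (4.55%) of 12618 regions. Either direction made up 11.5%. Knockout 2 h had 9 stronger (0.0841%) and 6 weaker (0.0561%) regions, 0.140% in either direction. Parental 4 h had 13 stronger (0.120%) and 24 weaker (0.222%), 0.342% in either direction. Whether the excess at 4 h comes from the drug or from the depth of the library cannot be told apart.

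The regions that were stronger at 4 h ranked low in every other library of the series. Their median rank was 2129 in knockout 4 h and 5410 in knockout DMSO. It was 5303 in knockout 2 h, so after 2 h of the drug these sites stood close to where they stood with DMSO. In parental cells the median was 5191 with DMSO, 4927 at 2 h and 5075 at 4 h. The weaker regions had a median rank of 5348 in knockout 4 h and 2137 in knockout DMSO. They ranked 2611 in knockout 2 h, and 2601, 2921 and 3008 in parental cells with DMSO, at 2 h and at 4 h. Of the 371 stronger regions, 3 were also at least 2500 places stronger in parental 4 h than in parental DMSO, and of the 334 weaker ones 13 were also weaker there. Over all 6078 regions these numbers were 30 and 45. Regions were picked by their rank at 4 h as well as in the DMSO library. Part of the distance of knockout 4 h, and of knockout DMSO, from the other 4 libraries therefore follows from the choice.

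**Figure D3:**
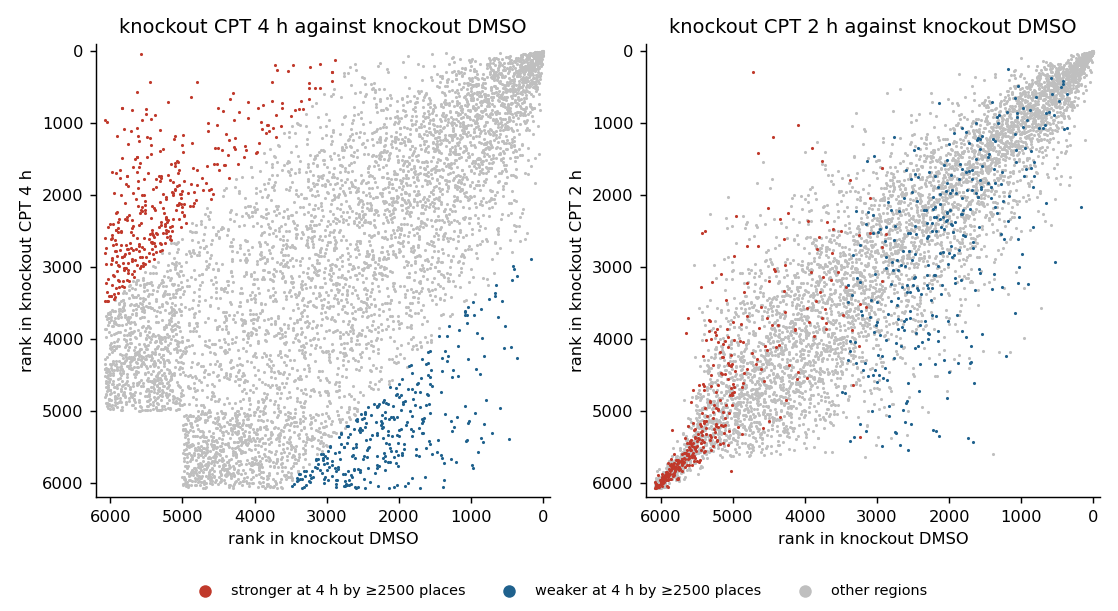
Each point is 1 of 6078 regions, by its rank in knockout DMSO (horizontal axis) and in knockout 4 h (left, vertical axis) or knockout 2 h (right, vertical axis), with rank 1 at the top right. Regions at least 2500 places stronger at 4 h (371, red) or weaker (334, blue) lie far from the diagonal on the left by choice and mostly near it on the right, and the empty corner at the lower left of the left panel comes from taking only regions within the 5000 strongest of 1 library or the other.

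In a smaller set the 4 h library stood apart from all 5 others. In 169 of all 6078 regions it ranked at least 2500 places better than each of the other libraries, which is 45.6% of the 371. In 62 of the 6078 it ranked at least 2500 places worse than each, which is 18.6% of the 334. As merged regions the 169 were often narrow, with 34.3% under 500 bp, against 19.4% of the 371 and 4.21% of all regions. Of the 62, 0 were under 500 bp. These widths depend on which library's peaks formed a region, so they cannot show that the sets differ in form. Read from parental DMSO alone, the median width was 853 bp for the 169 and 999.5 bp for the 62. For all regions it was 1397 bp there. Both sets were picked by their rank at 4 h, so part of their distance in rank follows from the choice.

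The widest rise lay on chromosome 5 from 1097473 to 1099339. This region ranked 45 in knockout 4 h and 5568 in knockout DMSO. It stood at 5650 in knockout 2 h, and at 5088, 5439 and 5545 in parental DMSO, 2 h and 4 h. The authors' fold there was 6.0 in knockout 4 h and 2.91 in knockout DMSO, and between 2.64 and 3.69 in the other 4 libraries. The 4 h library stands alone at this site, and the other 5 overlap closely.

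On chromosome 6 from 167197263 to 167197806 the rank was 954 in knockout 4 h, where the fold was 8.0, and 6076 in knockout DMSO, whose list holds no peak there. Ranks in the other 4 libraries ran from 5992 to 6064. On chromosome 16 from 12274270 to 12274597 the rank was 978 in knockout 4 h and 6052 in knockout DMSO, with folds of 8.32 and 2.57 in that order. The region on chromosome 12 from 133412295 to 133413297 ranked 571 in knockout 4 h and 5635 in knockout DMSO, with folds of 4.83 and 2.39. With regions ordered by fold it rose by 2252 places, short of the 2500 counted. In all 10 of the widest rises each of the other 5 libraries ranked the region at 4315 or worse, while knockout 4 h ranked it between 45 and 1183. Each lay on a different chromosome. All 10 were picked by a high rank in knockout 4 h. The widest peak touching the chromosome 12 region was 1003 bp in knockout 4 h and 4634 bp in knockout DMSO. For the chromosome 16 region these widths were 328 and 2755 bp. Other rises had peaks of like width, such as 731 and 788 bp on chromosome 10 from 111577509. Whether peak width moved fold or rank was not tested.

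Among these 10, parental cells placed 1 region somewhat better at 4 h. On chromosome 9 from 86643917 to 86644263 knockout 4 h ranked it 792, knockout DMSO 5835 and knockout 2 h 5795. In parental cells the ranks were 5582 with DMSO, 5718 at 2 h and 4315 at 4 h, a rise of 1267 places over parental DMSO. The fold was 8.51 in knockout 4 h and 5.21 in knockout DMSO, and 11.8 in parental 4 h and 7.63 in parental DMSO. The widest peak there was 347 bp in knockout 4 h and 1971 bp in knockout DMSO, and 260 and 328 bp in parental 4 h and DMSO. Of the other 9 regions, the parental shift was between −457 and 236 places.

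The rule also asked which regions passed from outside the 5000 strongest into the 1000 strongest. There were 14 in knockout 4 h, and of the 10 with the widest gap 8 are among those above. The other 2 were of low fold. On chromosome 20 from 43278487 to 43280891 the rank was 803 in knockout 4 h and 5501 in knockout DMSO, with folds of 3.04 and 1.97. On chromosome 16 from 88850048 to 88852331 it was 876 in knockout 4 h and 5506 in knockout DMSO, with folds of 3.17 and 2.17. Both ranked at 4284 or worse in each of the other libraries. Their −log10 p was nonetheless lower at 4 h than in every other library. It was 14.7 at 4 h and 15.7 with DMSO on chromosome 20, and 14.4 and 15.7 on chromosome 16.

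The widest fall lay on chromosome 6 from 80675159 to 80675857. The rank was 5400 in knockout 4 h and 470 in knockout DMSO, and the fold was 5.10 at 4 h and 10.4 with DMSO. Knockout 2 h ranked the region 695. Parental cells ranked it 933 with DMSO, 3964 at 2 h and 2996 at 4 h, so there too it stood lower in both treated libraries than with DMSO. On chromosome 3 from 185778533 to 185779007 the rank was 5753 in knockout 4 h and 986 in knockout DMSO. It was 2820 in knockout 2 h, and 974, 3720 and 3466 in parental DMSO, 2 h and 4 h. The widest peak at this chromosome 3 region was 2483 bp in knockout 4 h and 475 bp in knockout DMSO.

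Several of the falls were graded over time in the knockout. On chromosome 1 from 211848506 to 211849295 the ranks were 901 with DMSO, 3238 at 2 h and 5577 at 4 h in the knockout, and 2273, 4358 and 4644 at the same steps in parental cells. On chromosome 1 from 43824007 to 43825388 they were 1207, 4233 and 5707 in the knockout and 2128, 4481 and 4534 in parental cells. With regions ordered by fold this one shifted by −1299 places between 4 h and DMSO, short of the 2500 counted. On chromosome 4 from 99964911 to 99965505 they were 1380, 3105 and 6067 in the knockout and 2065, 3748 and 5266 in parental cells. On chromosome 2 from 201390667 to 201391461 they were 834, 2452 and 5433 in the knockout and 1696, 2521 and 4741 in parental cells. These regions stood lower at both times in both genotypes. All 10 widest falls were picked by a high rank in knockout DMSO, and the 2 h and 4 h values of each genotype share 1 DMSO library.

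In 3 of the 10 widest falls knockout 4 h ranked at least 2500 places worse than each of the other 5 libraries. On chromosome X from 24072395 to 24073467 the rank was 5308 in knockout 4 h and 701 in knockout DMSO. It was 1071 in knockout 2 h, and 1058, 1089 and 778 in parental DMSO, 2 h and 4 h. The fold was 4.82 in knockout 4 h and 7.24 in knockout DMSO, and between 7.11 and 7.23 in the other 4. On chromosome 4 from 83931476 to 83932300 the rank was 5378 in knockout 4 h and 859 in knockout DMSO, and the other 4 libraries ranked it between 703 and 1449. On chromosome 6 from 118978277 to 118979021 it was 5798 in knockout 4 h and 972 in knockout DMSO, with 1053 in knockout 2 h. Parental cells ranked that last region 520, 2340 and 2094 with DMSO, at 2 h and at 4 h.

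In the opposite crossing, 9 regions went from the 1000 strongest with DMSO to outside the 5000 strongest at 4 h. Of these, 5 were at least 2500 places weaker than in each of the other libraries, among them 2 not yet given. On chromosome 14 from 107154125 to 107155362 the rank was 5186 in knockout 4 h and 815 in knockout DMSO, with 1732 in knockout 2 h and 1954 to 2656 in parental cells. On chromosome 19 from 14800343 to 14801324 it was 5029 in knockout 4 h and 945 in knockout DMSO, and the other 4 libraries ranked it between 975 and 1343. The fold of this last region was 4.89 in knockout 4 h, 7.94 in knockout DMSO and 7.79 to 8.17 elsewhere.

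**Figure D4:**
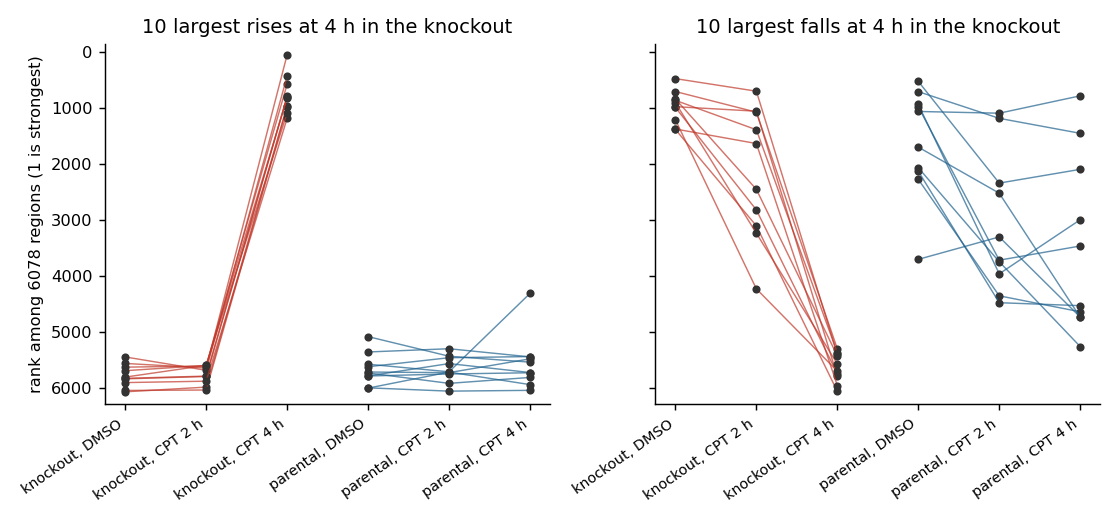
Ranks (vertical axis, rank 1 at the top) of the 10 widest rises (left) and the 10 widest falls (right) of knockout 4 h against knockout DMSO, in all 6 libraries, with lines joining the times of 1 genotype. The rises lie at 4315 or worse in every library but knockout 4 h, while several of the falls also stand lower in treated parental cells.

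At the top of the list most regions stayed high but changed places. Of the 1000 strongest regions at 4 h, 677 were among the 1000 strongest with DMSO, and 876 among the 2000 strongest. The strongest region of all 6 libraries was the same, on chromosome 2 from 33141144 to 33141825. Its fold was 13.2 in knockout 4 h and 12.8 in knockout DMSO. Its −log10 p ran from 117.3 to 123.3 over the 6 libraries, and so did not fall with the low background pileup of knockout 4 h. The 10 strongest regions at 4 h all ranked 113 or better in knockout DMSO and 427 or better in every library. On chromosome 12 from 73839 to 75042 the rank was 2 in knockout 4 h and 5 in knockout DMSO. On chromosome 1 from 28657 to 29884 it was 5 in knockout 4 h and 19 in knockout DMSO. Both start less than 100 kb from the first base of their chromosome. The distance of the 10 regions from the last base of their chromosome was not looked at. On chromosome 5 from 96142867 to 96144297 it was 6 in knockout 4 h and 14 in knockout DMSO. Whether reads at these sites map to 1 place only was not tested.

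Regions that changed rank differed in form. Form was read from parental DMSO, a library outside the comparison, and strength was held alike by taking the regions ranked 2001 to 4000 there. Those in the highest tercile by fold were narrow and sharp, with a median fold of 7.40 and a median width of 1026 bp. Their median rank was 4067 in knockout 4 h and 2993 in knockout DMSO. Of these 667 regions 16.3% were weaker by at least 2500 places at 4 h and 1.05% were stronger, against 5.50% and 6.10% of all regions. Those in the lowest tercile were wide and shallow, with a median fold of 4.28 and a median width of 1976 bp. Their median rank was 2894 in knockout 4 h and 3204 in knockout DMSO. Of these 666 regions 2.55% were weaker and 5.11% stronger. The middle tercile lay between, with 6.15% weaker and 2.70% stronger. With 10000 peaks per library the sharp regions behaved alike, with 15.8% weaker and 0.60% stronger by 5000 places, but the wide ones had 3.60% weaker and 1.65% stronger. Of these lists, more wide regions were stronger than weaker in that of 5000 peaks alone. Width without strength held alike did not give this split. From 5000 peaks, 10.3% of the narrowest quintile in parental DMSO were stronger and 9.96% weaker, against 9.13% and 1.89% of the widest. From 10000 peaks these were 21.9% and 5.87%, against 1.94% and 2.69%. The narrowest quintile includes regions without a peak in parental DMSO.

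The other comparisons showed this split in part. Their weaker share was also highest among the sharp regions, at lower levels. In knockout 2 h 2.70% of the sharp regions were weaker by 2500 places, against 0.450% of the wide ones. In parental 4 h, with form and strength read from knockout DMSO, these shares were 4.05% and 1.35%. The stronger share was also highest among the sharp regions in both, unlike in knockout 4 h. The median shifts did not follow knockout 4 h either. For the sharp regions they were 22 places in knockout 2 h and 141 places in parental 4 h, both towards stronger. For the wide regions the median shift in parental 4 h was −356.5 places, towards weaker. In knockout 4 h the median shift was −1012 places for the sharp regions and 272 places for the wide ones, where negative means weaker at 4 h. The depth of the 4 h library moves with this pattern. The difference between the comparisons was not tested, since each has 1 library per group.

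**Figure D5:**
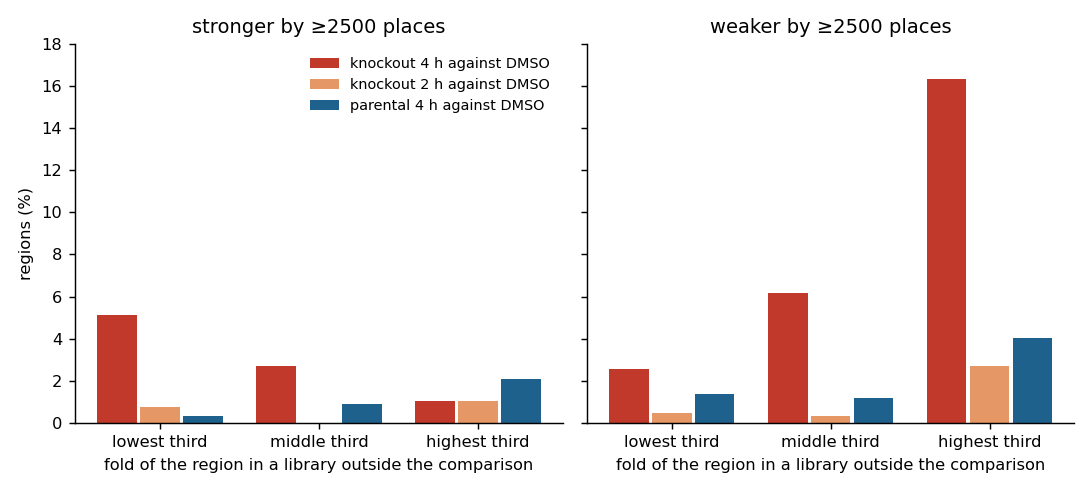
Percent of regions (vertical axis) stronger (left) or weaker (right) by at least 2500 places than with DMSO, for regions of like strength in terciles of the fold that a library outside the comparison gave them (horizontal axis). The weaker share in knockout 4 h climbs to 16.3% in the highest tercile, where knockout 2 h and parental 4 h also have their highest weaker shares, 2.70% and 4.05%.

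The 10000 strongest peaks of the 4 h library were spread differently over chromosomes. In the shorter list no difference was larger than counting error. Among the 5000 strongest, chromosome counts at 4 h lay above those of all 5 other libraries on 8 chromosomes and below them on 8 of 23, but in 0 of the 23 did the Wilson 95% interval leave the range of the others. Among the 10000 strongest the interval lay above that range on 6 chromosomes and below it on 4. These intervals cover counting error over peaks only, and peaks are not replicates. No correction was made for looking at 23 chromosomes. Chromosome 4 held 445 of the 10000 at 4 h and 328 with DMSO, a ratio of 1.36, and 328 to 335 in all other libraries. Chromosome 13 held 250 at 4 h and 193 with DMSO, with 179 to 193 elsewhere. Chromosome 18 held 183 at 4 h and 149 with DMSO, with 146 to 156 elsewhere. Chromosome 8 held 376 at 4 h and 319 with DMSO, chromosome 5 held 474 at 4 h and 425 with DMSO, and chromosome 2 held 736 at 4 h and 668 with DMSO.

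On 4 chromosomes the 4 h library held fewer. Chromosome 19 had 522 of the 10000 strongest peaks at 4 h and 622 with DMSO, a ratio of 0.839, with 622 to 703 in the other libraries. Chromosome 22 had 208 at 4 h and 251 with DMSO, and chromosome 17 had 520 at 4 h and 585 with DMSO. Chromosome 1 had 927 at 4 h and 1014 with DMSO. The shorter list showed the same order in part, within counting error. There chromosomes 2, 4 and 18 also lay above all other libraries, and chromosomes 1, 17 and 19 below them. Chromosomes 5, 8 and 13 lay below all others, the opposite direction, and chromosome 22 lay within their range. Among the 5000 strongest, chromosome 13 held 103 at 4 h and 109 with DMSO, and 105 to 109 in the other libraries. The median shift of the regions from 5000 peaks was −201 places on chromosome 1, which held fewer peaks at 4 h in both lists. Towards weaker at 4 h it was also −99.5 places on chromosome 4, −173 on chromosome 13 and −326 on chromosome 18. It was 75.5 on chromosome 19, 254 on chromosome 22 and 37 on chromosome 17, towards stronger. The 4 h peaks ranked 8001 to 10000 were also those least often found with DMSO. Low depth moves with these values, and its part in them was not tested.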

How the data were processed

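H3K27ac ChIP-seq peaks of 6 libraries were analysed, 1 per group, grouped by the labels. The authors' lists of broad peaks, 1 for each library and none pooled, have positions on hg19. Per the submitters' processing notes, the tools were MACS2 2.1.2, BWA 0.7.17, Trimmomatic 0.39, Trim Galore 0.6.2, Picard 2.9.2 and SAMtools 1.8, with no roles or order stated. No source used here gives the settings or the control sample. Each peak's fold, as deposited, was read as a ratio of pileup to local background with 1 added to both, so it depends on depth. Its −log10 p and −log10 q are also the deposited values. The deposited score equals 10 times the −log10 q and was not used further.

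Peaks off chromosomes 1 to 22 and X, 1.58% to 1.89% of each list, were left out. Peaks were ordered by −log10 p, and peaks sharing 1 bp or more counted as shared. Overlapping peaks of both libraries were merged into regions, and a region without a deposited peak took the last rank. Shifts are the rank in DMSO minus the rank at 4 h. Named regions are the 10 widest rises and falls, the 10 strongest at 4 h, and up to 10 that crossed between the 1000 strongest and outside the 5000 strongest. The regions of the comparison and its rules were chosen with earlier results of these data known. The limit on depth was part of that choice. Background pileup was solved from MACS2's formulas for fold and Poisson p, to within 1.22e-05 of the deposited −log10 p. Depth in reads was not in the lists. Gene lists planned for an hg19 annotation were not run. Python 3.11.15, scipy 1.17.1 and pandas 2.3.3 were used, and the steps were tested on simulated data. Both simulated lists came from the knockout DMSO peaks, so they could not show how a difference in depth or peak borders acts. Alternatives are given in the closing section.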

Additional observations from a re-analysis of the deposited data

How the results depend on the processing

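No paired analysis was possible because each group has 1 library. Ordering peaks by fold moved most values. The shared peaks at 5000 were then 59.2% in both directions, and at 10000 they were 66.2% of 4 h peaks and 66.1% of DMSO peaks. The Spearman correlation over regions was 0.10, with 1341 stronger and 1465 weaker regions of 7039. Of the 20 named rises and falls, 19 were present and 15 kept a shift of 2500 places. The other 4 were on chromosome 12 from 133412295 (2252 places), chromosome 2 from 223731295 (292), chromosome 14 from 79780382 (2092) and chromosome 1 from 43824007 (−1299). Asking for an overlap of 50% of both peaks gave 76.9% in both directions at 5000 and 70.7% at 10000. Taking every peak whose −log10 q reached 5, lists of 5467 and 14457 peaks, 95.5% of the 4 h peaks were found with DMSO and 36.1% of the DMSO peaks at 4 h. With 10000 peaks per library the correlation was 0.64, with 876 stronger and 574 weaker regions. Regions from DMSO peaks alone gave 0.70, 108 stronger and 70 weaker of 5000, and held 10 of the 20 named rises and falls. Regions from 4 h peaks alone gave 0.69, 93 stronger and 105 weaker of 5000, and held the other 10. By construction such regions leave out sites weak in 1 library. Against knockout 2 h in place of DMSO, an alternative chosen after seeing the data, the correlation was 0.63, with 341 stronger and 297 weaker regions, and 18 of the 20 named regions kept a shift of 2500 places. Without regions under 500 bp, also chosen after seeing the data, it was 0.63, with 294 stronger and 242 weaker. Taking the peak with the largest overlap changed no count by over 1.5 times. Joining peaks within 500 bp gave the same 6078 regions and the same values, so it could not move any result. Over 119 values of single named regions, 113 stayed past the shift, 6 fell below it and 0 turned sign. The 119 include the 20 unchanged values from joining and 20 nearly unchanged ones from the largest overlap. All 20 regions were picked for wide shifts in the same libraries, so these counts do not measure how stable the shifts are. The share of sharp regions that were weaker was 13.8% with form read from parental 4 h and 15.8% with 10000 peaks, while the share of wide regions that were stronger was 5.71% and 1.65%. Both were chosen after seeing the data.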
